A study of Mus musculus with 12 samples.

Results

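The 9 genes studied here mark the oligodendrocyte lineage (Olig1, Olig2, Pdgfra, Cspg4, Nkx2-2, Gpr17, Mbp, Cnp and Myrf) and were followed in cultured mouse neural progenitor cells (mNPCs). They were chosen by name, and all 9 were found by symbol among the 18911 genes of the count table and passed the filter on low counts. The table lists them by Ensembl identifier, as ENSMUSG00000046160 (Olig1), ENSMUSG00000039830 (Olig2), ENSMUSG00000029231 (Pdgfra), ENSMUSG00000032911 (Cspg4), ENSMUSG00000027434 (Nkx2-2), ENSMUSG00000052229 (Gpr17), ENSMUSG00000041607 (Mbp), ENSMUSG00000006782 (Cnp) and ENSMUSG00000036098 (Myrf). The mNPCs were grown from the hippocampus of newborn (P0) pups and kept in medium with FGF-2, EGF and heparin, and poly(A) RNA was sequenced from 3 libraries of each of 4 genotypes. Kmt2a+/+ cells carried only the normal gene. Kmt2a+/LSL cells, the model of Wiedemann-Steiner syndrome (WDSTS), carried on one allele a loxP-stop-loxP (LSL) cassette in the first intron of Kmt2a, which cuts the transcript short. Nes-Cre+/- Kmt2a+/LSL cells carried in addition one copy of Cre recombinase driven by the nestin promoter, which is active in neural progenitors and removes the cassette before birth. Nes-Cre+/- Kmt2a+/+ cells carried the Cre copy without the cassette and served as a second control. Cells that never expressed nestin would keep the cassette. The study speaks of biological replicates within genotypes. Whether the libraries of a genotype came from separate pups or litters is not given in the sources used here, so the p-values measure the spread between these libraries, whatever its source.

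Oligodendrocytes form the myelin sheaths of the central nervous system. Their precursor cells arise from neural progenitors, are specified by the basic helix-loop-helix factors OLIG1 and OLIG2, and divide in response to platelet-derived growth factor through its receptor PDGFRA while carrying the proteoglycan NG2, the product of Cspg4. As the cells leave the cycle they pass through a stage marked by the receptor GPR17, and NKX2-2 and then the membrane-bound factor MYRF drive them toward the myelin genes, among them Mbp and Cnp. KMT2A, the protein lost from one allele here, writes methyl groups on lysine 4 of histone H3, and its CXXC domain binds CpG dinucleotides that are not methylated.

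CpG content is therefore the feature of these promoters that is shown. Sequence before the gene start was taken from RefSeq on GRCm38.p6, whose promoter table held 5 of the 9 genes (Olig2, Pdgfra, Cspg4, Nkx2-2 and Cnp), as windows of 300 bases, 250 before the start and 50 after it. The windows of Olig2, Cspg4 and Pdgfra are given, because Olig2 had a high correlation with Cspg4 across the libraries and a low one with Pdgfra. Of the 250 bases before the start, those from the first exon of a protein-coding transcript of the same gene onward are left off. Other exons were not checked. The sequences run 5′ to 3′ on the plus strand, and capitals mark each CG.

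Olig2, chr16:91225300-91225456: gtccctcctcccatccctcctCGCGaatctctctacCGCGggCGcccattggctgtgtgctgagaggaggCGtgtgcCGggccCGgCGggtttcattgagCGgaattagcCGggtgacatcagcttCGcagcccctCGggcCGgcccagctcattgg

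Cspg4, chr9:56864854-56865032: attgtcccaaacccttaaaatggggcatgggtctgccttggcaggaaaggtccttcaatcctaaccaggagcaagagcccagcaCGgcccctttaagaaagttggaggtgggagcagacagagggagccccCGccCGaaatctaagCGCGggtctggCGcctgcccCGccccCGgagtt

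Pdgfra, chr5:75152001-75152250: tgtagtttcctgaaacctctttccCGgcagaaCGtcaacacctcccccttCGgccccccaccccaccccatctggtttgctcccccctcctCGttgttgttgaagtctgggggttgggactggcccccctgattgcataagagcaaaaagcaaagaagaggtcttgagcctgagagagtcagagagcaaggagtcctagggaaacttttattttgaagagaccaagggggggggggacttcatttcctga

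The complete Olig2 window held 25 CG dinucleotides, the windows of Cspg4, Nkx2-2 and Cnp held 17 each, and that of Pdgfra held 5. The median over 32851 windows of the same length was 7, and 81.6% of them held fewer than Olig2 while 38.0% held fewer than Pdgfra. The E-box, CANNTG, which basic helix-loop-helix factors bind, was searched as well (it reads the same on both strands). It was present in 72.3% of all windows, and in these 5 it occurred 3 times at Nkx2-2, 2 times at Pdgfra, 1 time at Cnp and 0 times at Olig2 and Cspg4. Such matches describe the letters and not binding.

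The libraries held between 18280008 and 28596919 estimated counts, so 3 counts corresponded to between 0.105 and 0.164 counts per 1000000 counts of the library (CPM). Levels are given as normalized CPM, for which library sizes were first scaled by the trimmed mean of M-values (TMM). Kmt2a itself lay between 280.5 and 300.3 CPM in Kmt2a+/+, between 165.8 and 166.6 in Kmt2a+/LSL, between 282.9 and 310.0 in Nes-Cre+/- Kmt2a+/+ and between 259.0 and 284.4 in Nes-Cre+/- Kmt2a+/LSL. Every Kmt2a+/LSL library was thus below every other library, as the labels have it. One library, Kmt2a+/+ replicate 1, stood apart. Its median correlation of log2 CPM with the other libraries of its genotype was 0.903, against 0.939 to 0.984 for the other 11 libraries. It was the lowest of the 12 libraries for 8 of the 9 lineage genes, whereas it was the lowest, ties left out, for 34.1% of all 17076 genes tested. The summed CPM of the 9 genes was 1233 in this library and between 3643 and 5866 in the others. The fold changes, counts and medians given for comparisons with Kmt2a+/+ are therefore also given without it. In bulk RNA, fewer cells of the lineage and less RNA per cell cannot be told apart.

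Across the 4 genotypes, the 9 genes showed no difference that passed the test. In edgeR, however, 0.0% of all genes were called in each of the 4 comparisons between genotypes. Kmt2a itself was thus not called in Kmt2a+/LSL against Kmt2a+/+, although its libraries were fully separate there. The lack of a call therefore does not show that a gene is unchanged. The genes of early specification were abundant in every library, with Olig1 at 1389 CPM per kilobase of exon on average over the 12 libraries and Olig2 at 340, whereas Mbp, the gene of the major myelin basic protein, stood at 0.191. None of the 9 was called in any of the 4 comparisons between genotypes, and groups of libraries that did not overlap were seen for Nkx2-2, estimated at 1.43 times its Kmt2a+/LSL level in Nes-Cre+/- Kmt2a+/LSL, and for Myrf, at 0.645 times that level, both with an adjusted p of 1.00 in edgeR, in a comparison in which the groups did not overlap for 7.13% of all genes.

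The genes were compared with each other per kilobase of exon. Among 16926 genes with an annotated length, Olig1 ranked 16 and Olig2 ranked 81 from the top. Cnp, which encodes the myelin enzyme CNPase and is expressed early in the lineage, followed at 77.6 CPM per kilobase and rank 501. Cspg4 stood at 12.0 (rank 4012), Nkx2-2 at 5.67 (rank 6760) and Pdgfra at 3.94 (rank 8022). Gpr17 at 0.826, Myrf at 0.331 and Mbp at 0.191 filled ranks 11202, 12494 and 13374. Pdgfra, the receptor by which precursor cells are usually isolated, thus stood at between 0.652% and 2.72% of the Olig2 level per kilobase, depending on the library and with all annotated exon bases as the length. The ratio of Olig1 to Olig2 per kilobase was between 3.79 and 4.76 in 11 libraries and 2.09 in Kmt2a+/+ replicate 1.

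**Figure D1:**
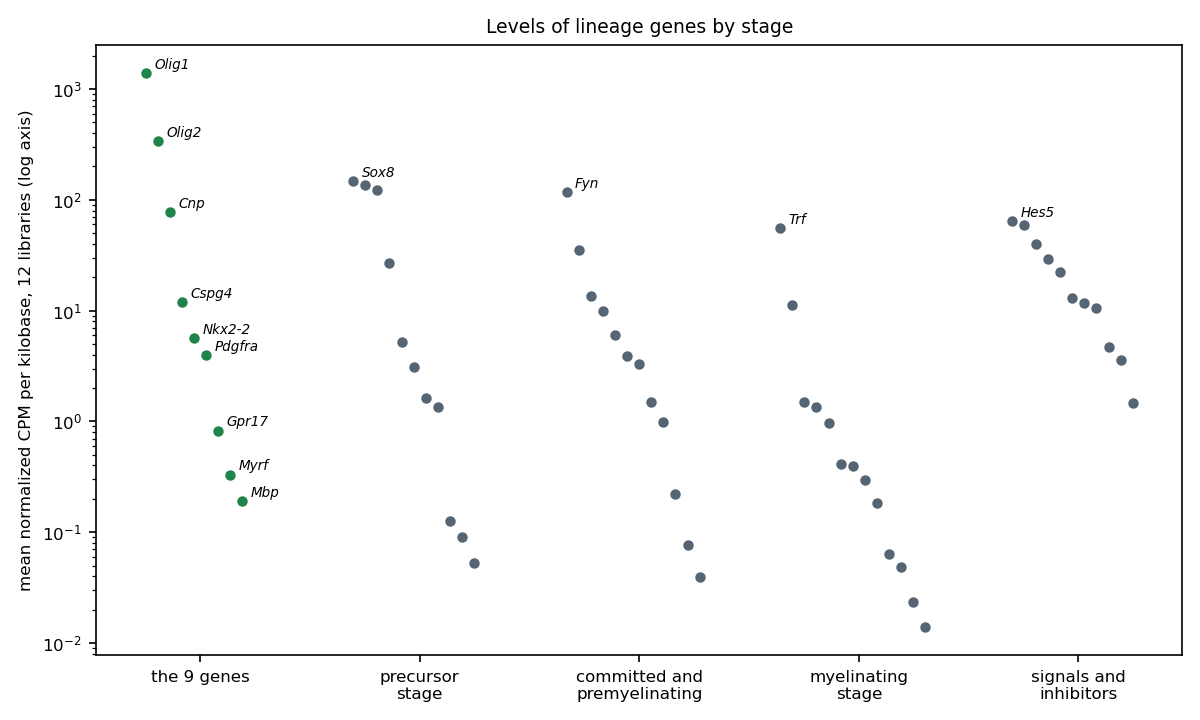
Mean level of each gene over the 12 libraries, as normalized CPM per kilobase of exon on a log axis, for the 9 genes (green) and for the genes of 4 wider lists (grey), sorted from high to low within each. The highest gene of each wider list is named. The 9 genes run from Olig1 at 1389 to Mbp at 0.191, and Trf is the highest gene of the myelinating list.

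Olig1 and Olig2 are neighbours on chromosome 16 (91269772 to 91271933 and 91225457 to 91228677 on the plus strand). Olig1 was at 705, 3078 and 4144 CPM in Kmt2a+/+ replicates 1 to 3, and at 2832, 2574 and 3249 CPM in Kmt2a+/LSL. In Nes-Cre+/- Kmt2a+/+ it was at 3610, 3125 and 2945 CPM, and in Nes-Cre+/- Kmt2a+/LSL at 2565, 3945 and 3270 CPM. The lowest and the highest of the 12 values were thus both in Kmt2a+/+, and the other 3 genotypes lay between them. The order of the means was Nes-Cre+/- Kmt2a+/LSL (3260 ± 690.2, SD, n = 3), Nes-Cre+/- Kmt2a+/+ (3227 ± 344), Kmt2a+/LSL (2885 ± 341) and Kmt2a+/+ (2642 ± 1760), and no neighbours in that order were separated. Kmt2a+/LSL differed from Kmt2a+/+ by 0.12 ± 0.51 (SE) on the log2 scale, with a 95% interval from -1.03 to 1.26. Without Kmt2a+/+ replicate 1 it was -0.33 ± 0.22, with an adjusted p of 0.743 in edgeR. Its exons share 157 bases with Gm15966 on the opposite strand, which is not analysed here.

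Olig2 repeated this picture at a lower level. It was at 395, 756 and 1116 CPM in Kmt2a+/+, and at 875, 732 and 983 CPM in Kmt2a+/LSL. With Cre it was at 1046, 856 and 846 CPM in Kmt2a+/+ cells and at 693, 1096 and 919 CPM in Kmt2a+/LSL cells. The highest library was again Kmt2a+/+ replicate 3, followed by Nes-Cre+/- Kmt2a+/LSL replicate 2, as for Olig1. On the log2 scale Kmt2a+/LSL was 0.18 ± 0.35 (SE) above Kmt2a+/+, and Nes-Cre+/- Kmt2a+/LSL was 0.067 ± 0.35 above Kmt2a+/LSL. With Kmt2a+/+ replicate 1 left out, the first was -0.12 ± 0.24, a change of sign, and its 95% interval ran from -0.65 to 0.41.

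Nkx2-2 encodes a homeodomain factor that times the step from precursor to differentiating cell, and lies on chromosome 2 (147177546 to 147194243, minus strand). It was at 10.4, 15.3 and 22.0 CPM in Kmt2a+/+, and at 11.7, 13.6 and 13.9 CPM in Kmt2a+/LSL. The cells that carried Cre had it at 19.2, 17.1 and 16.3 CPM in Kmt2a+/+ cells and at 15.2, 20.8 and 20.2 CPM in Kmt2a+/LSL cells. All 3 Kmt2a+/LSL libraries lay below all 6 libraries with Cre and below Kmt2a+/+ replicates 2 and 3, but above Kmt2a+/+ replicate 1. Against Kmt2a+/+ the log2 fold change of Kmt2a+/LSL was -0.30 ± 0.29 (SE), and without Kmt2a+/+ replicate 1 it was -0.51 ± 0.22, with an unadjusted p of 0.0414 and an adjusted p of 0.734 in edgeR. Nes-Cre+/- Kmt2a+/LSL was higher than Kmt2a+/LSL by 0.52 ± 0.29 on the log2 scale, with a 95% interval from -0.13 to 1.17, and in the exact two-sided permutation test over the 3 and 3 libraries p was 0.1, the smallest value that this design allows. Both comparisons use the same 3 Kmt2a+/LSL libraries. Its exons share 278 bases with Nkx2-2os on the opposite strand, and as the strand setting of the libraries is not given in the sources used here, reads from this stretch cannot be told apart.

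Myrf, on chromosome 19 (10208272 to 10240748, minus strand), encodes the factor that switches on and maintains the myelin program. It was at 1.07, 2.31 and 4.33 CPM in Kmt2a+/+, and at 3.34, 4.02 and 2.97 CPM in Kmt2a+/LSL. Cells with Cre held it at 3.66, 3.25 and 2.38 CPM in Kmt2a+/+ cells and at 1.34, 2.44 and 2.87 CPM in Kmt2a+/LSL cells. These values rest on 18 to 126 counts per library. The 3 Nes-Cre+/- Kmt2a+/LSL libraries lay below the 3 Kmt2a+/LSL libraries, with a log2 fold change of -0.63 ± 0.50 (SE), a 95% interval from -1.77 to 0.50 and an exact permutation p of 0.1. They overlapped with Nes-Cre+/- Kmt2a+/+, where the log2 fold change was -0.48 ± 0.46.

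Pdgfra, on chromosome 5 (75152292 to 75198215, plus strand), differed more between libraries of one genotype than between genotypes. It was at 17.6, 81.5 and 31.7 CPM in Kmt2a+/+, and at 27.5, 77.6 and 25.4 CPM in Kmt2a+/LSL. With the Cre copy it was at 43.8, 23.7 and 43.9 CPM in Kmt2a+/+ cells and at 22.9, 33.0 and 44.8 CPM in Kmt2a+/LSL cells. One library of Kmt2a+/+ and one of Kmt2a+/LSL, both replicate 2, held the highest values, and the means of these genotypes were 43.6 ± 33.6 and 43.5 ± 29.6 CPM (SD, n = 3). The log2 fold change between them was -0.0075 ± 0.60 (SE), with a 95% interval from -1.36 to 1.35. It was -0.37 ± 0.53 without Kmt2a+/+ replicate 1, 0.81 without Kmt2a+/+ replicate 2 and -0.73 without Kmt2a+/LSL replicate 2. For Nes-Cre+/- Kmt2a+/LSL against Kmt2a+/LSL it was -0.38 ± 0.60, and 0.35 without Kmt2a+/LSL replicate 2. The spread of Pdgfra between libraries of a genotype, as the biological coefficient of variation of edgeR, was 0.486, and 73.8% of all genes tested had a lower one.

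Gpr17, whose product marks cells committed to the lineage but not yet forming myelin, had a still wider spread, with a biological coefficient of variation of 0.657 that exceeded that of 84.4% of the genes. It was at 1.55, 7.87 and 4.39 CPM in Kmt2a+/+, and at 2.89, 10.8 and 1.81 CPM in Kmt2a+/LSL. In the presence of Cre it was at 6.55, 2.57 and 3.73 CPM in Kmt2a+/+ cells and at 1.84, 1.42 and 6.06 CPM in Kmt2a+/LSL cells. The same pair of replicate 2 libraries was highest, as for Pdgfra. The estimates for Gpr17 were accordingly the least certain of the 9, with a 95% interval from -2.62 to 1.13 on the log2 scale for Nes-Cre+/- Kmt2a+/LSL against Kmt2a+/LSL. Left without Kmt2a+/LSL replicate 2, that log2 fold change went from -0.74 to 0.40. Its exons share 188 bases with Lims2 on the opposite strand, which was between 0.119 and 1.87 CPM.

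Cspg4, on chromosome 9 (56865033 to 56899870, plus strand), encodes the NG2 proteoglycan of the precursor surface. It was at 23.6, 139 and 226 CPM in Kmt2a+/+, and at 121, 145 and 145 CPM in Kmt2a+/LSL. Once Cre was present it was at 172, 113 and 132 CPM in Kmt2a+/+ cells and at 111, 190.2 and 199 CPM in Kmt2a+/LSL cells. The highest value was 9.56 times the lowest over the 12 libraries and 2.04 times the lowest over the 11 libraries without Kmt2a+/+ replicate 1. The log2 difference between Kmt2a+/LSL and Kmt2a+/+ was 0.071 ± 0.61 (SE) with every library, and -0.42 ± 0.27 without that library, where the 95% interval ran from -1.03 to 0.19 and the adjusted p in edgeR was 0.741.

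Cnp, on chromosome 11 (100574904 to 100591729, plus strand), was the more abundant of the 2 myelin genes. It was at 78.0, 312 and 315 CPM in Kmt2a+/+, and at 277, 298 and 366 CPM in Kmt2a+/LSL. Among the cells with Cre it was at 281, 271 and 334 CPM in Kmt2a+/+ cells and at 232, 304 and 322 CPM in Kmt2a+/LSL cells. Kmt2a+/+ replicate 1 was at 33.7% of the next lowest library, and otherwise the values of the 4 genotypes overlapped within a 1.58-fold range. Its log2 difference between Kmt2a+/LSL and Kmt2a+/+ was 0.41 ± 0.44 (SE), and 0.00073 ± 0.17 without Kmt2a+/+ replicate 1, with a 95% interval from -0.39 to 0.39. For Nes-Cre+/- Kmt2a+/LSL against Kmt2a+/LSL it was -0.13 ± 0.44. The exons of Cnp share 154 bases with Dnajc7 on the opposite strand, which was between 68.2 and 86.0 CPM in all libraries.

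Mbp was low throughout, with 18 to 56 counts per library. It was at 1.07, 2.11 and 1.65 CPM in Kmt2a+/+, and at 1.09, 2.11 and 2.41 CPM in Kmt2a+/LSL. In the Cre genotypes it was at 1.14, 1.80 and 1.87 CPM in Kmt2a+/+ cells and at 1.25, 1.39 and 1.505 CPM in Kmt2a+/LSL cells. Every library thus lay above the 0.164 CPM that 3 counts stand for, and none was above 2.41 CPM. The log2 fold change of Nes-Cre+/- Kmt2a+/LSL against Kmt2a+/LSL was -0.44 ± 0.42 (SE), with a 95% interval from -1.37 to 0.50. Mbp and Gpr17 are both on chromosome 18.

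**Figure D2:**
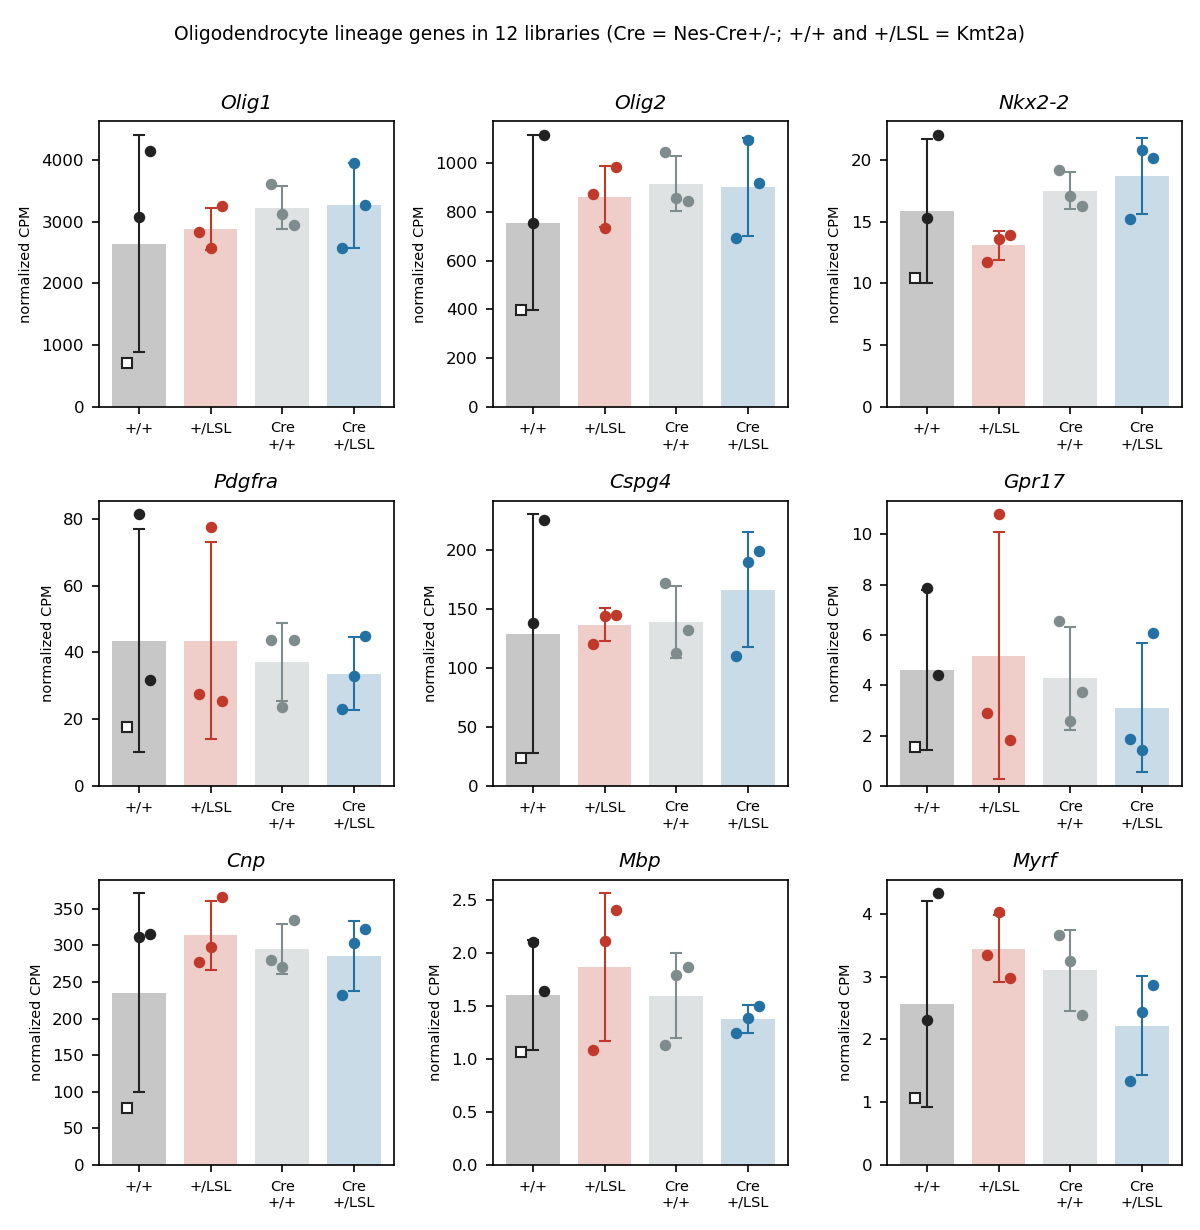
Normalized CPM of the 9 genes, with 1 panel per gene and a linear axis from 0. Points are libraries, bars are genotype means, error bars are SDs (n = 3), and the open square is Kmt2a+/+ replicate 1. The open square is the lowest point in every panel but that of Gpr17, and the points of the genotypes overlap, except that in Nkx2-2 the Kmt2a+/LSL points lie below those of both Cre genotypes and in Myrf they lie above those of Nes-Cre+/- Kmt2a+/LSL.

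The effect of the cassette was asked first, in Kmt2a+/LSL against Kmt2a+/+. Of the 9 genes, 0 were called by edgeR's quasi-likelihood test (adjusted p under 0.05), 0 had an unadjusted p under 0.05, and 0 were called by DESeq2 or by limma-voom. Over all 16655 genes tested, 0.0% were called by edgeR, 1.15% had an unadjusted p under 0.05 and 0.0421% were called by DESeq2. The estimates were higher in Kmt2a+/LSL for 7 genes and lower for 2, with a median log2 fold change of 0.16 against -0.011 over all genes, and 0 of the 9 had groups that did not overlap (4.06% of all genes did not). Without Kmt2a+/+ replicate 1 the split was the other way, with 2 higher and 7 lower and a median of -0.24 against 0.00 over all genes. For the genes whose change in this comparison has not yet been given, Gpr17 went from 0.16 to -0.24, Mbp from 0.20 to -0.0060 and Myrf from 0.40 to 0.051 on the log2 scale when that library was left out. Nkx2-2 was then the 1 gene with an unadjusted p under 0.05, where 6.0% of all 16516 genes were under it.

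In Nes-Cre+/- Kmt2a+/LSL against Kmt2a+/LSL, which asks what changed once the cassette was removed, 0 of the 9 genes were called by edgeR, by DESeq2 or by limma-voom, and 0 had an unadjusted p under 0.05. The backgrounds were 0.0% and 1.1% of 16655 genes in edgeR and 0.0361% in DESeq2. The estimates were higher for 4 genes (Olig1, Olig2, Cspg4 and Nkx2-2) and lower for 5 (Pdgfra, Gpr17, Mbp, Cnp and Myrf), with a median of -0.13 against 0.0027. The groups did not overlap for Nkx2-2 and Myrf, 2 of 9 genes, where 7.13% of all genes did not. Kmt2a+/+ replicate 1 is in neither of these groups, but enters the fit through the scaling and the estimate of the spread. Leaving it out brought the unadjusted p of Nkx2-2 to 0.029 at a log2 fold change of 0.51 ± 0.20 (SE), with an adjusted p of 1.00, and 2.77% of all genes then had an unadjusted p under 0.05.

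The second control was compared in the same way. For Nes-Cre+/- Kmt2a+/+ against Kmt2a+/+, which asks about Cre alone, 0 of 9 genes were called by edgeR or DESeq2 and 0 had an unadjusted p under 0.05, with backgrounds of 0.0%, 0.0176% and 1.4%, and 0 had groups that did not overlap (4.35% of all genes). The estimates were higher with Cre for 6 genes and lower for 3, but lower for all 9 once Kmt2a+/+ replicate 1 was left out, when the median was -0.17 against -0.0020 over all genes and 0 of 9 had an unadjusted p under 0.05 (6.09% of all genes). For Nes-Cre+/- Kmt2a+/LSL against Nes-Cre+/- Kmt2a+/+, 0 of 9 were called by either tool and 0 had an unadjusted p under 0.05, where the backgrounds were 0.0%, 0.0176% and 1.11%, and 0 had groups that did not overlap (6.68% of all genes). Higher estimates were found for 3 genes and lower ones for 6, with a median of -0.046 against 0.0049. No library of these groups stood apart, and without Kmt2a+/+ replicate 1 in the fit 3.23% of all genes had an unadjusted p under 0.05. The changes of Olig1 and Olig2 were 0.015 ± 0.46 and -0.021 ± 0.32 (SE) on the log2 scale, and without Kmt2a+/+ replicate 1 in the spread their 95% intervals were -0.39 to 0.41 and -0.46 to 0.40.

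**Figure D3:**
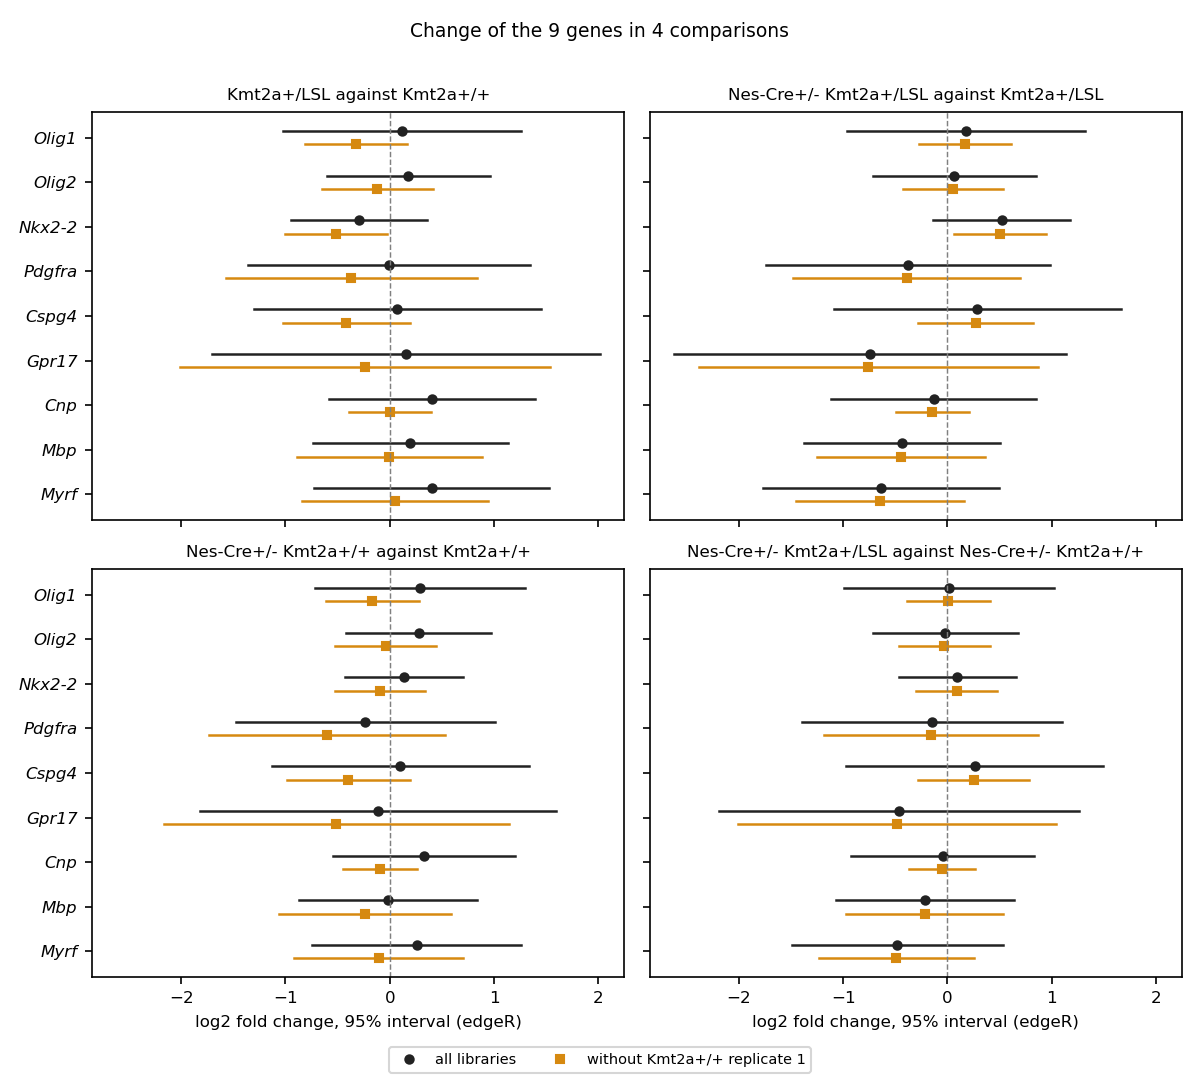
Log2 fold changes of the 9 genes with their 95% intervals in edgeR, in 4 panels for the 4 comparisons, from the fit with every library (black circles) and from the fit without Kmt2a+/+ replicate 1 (orange squares). All black intervals cross 0, while the orange interval of Nkx2-2 lies below 0 in the upper left panel (-1.002 to -0.025) and above 0 in the upper right panel (0.065 to 0.95), both with adjusted p-values over 0.05.

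Whether the cassette acted differently with Cre than without was tested as an interaction, which was called for 0 of the 9 genes (0 with an unadjusted p under 0.05, and 0 in DESeq2). Over all 17076 genes, 0.0% were called, 1.73% had an unadjusted p under 0.05, and DESeq2 called 0.0587%. With every library, the estimate farthest from 0 was that of Myrf, -0.89 ± 0.65 (SE) on the log2 scale, followed by -0.62 ± 1.11 for Gpr17. Without Kmt2a+/+ replicate 1 these were -0.54 ± 0.50 and -0.25 ± 1.03, and Cspg4 was farthest, at 0.67 ± 0.36. For Nkx2-2 the interaction was 0.38 ± 0.36, and without Kmt2a+/+ replicate 1 it was 0.60 ± 0.26 with an unadjusted p of 0.043 and an adjusted p of 0.995 in edgeR, where 3.31% of all genes had an unadjusted p under 0.05. A test for any difference among the 4 genotypes likewise called 0 of the 9 (0 with an unadjusted p under 0.05, where 1.15% of all genes were under it), with unadjusted p-values from 0.27 for Nkx2-2 to 0.919 for Cspg4. DESeq2 called 0 of the 9 and 0.0293% of all genes. Without Kmt2a+/+ replicate 1 edgeR called 0.0177% of all genes in this test and 5.35% had an unadjusted p under 0.05, among them 0 of the 9 genes.

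Wider lists of the lineage were described in the same fits, with 11 of 12 genes of the precursor stage matched, 12 of 12 of the committed and premyelinating stage, 13 of 14 of the myelinating stage, and 11 of 12 of signals and inhibitors. In every comparison 0 genes of these lists were called by edgeR or DESeq2. The precursor list was led per kilobase by Sox8, a SOX factor of glia, at 148 CPM per kilobase and by the sulfatase gene Sulf2 at 136. Sox10, the SOX factor that defines the lineage from precursor to myelin, stood at 1.63. It was at 3 counts (0.178 CPM) in Kmt2a+/+ replicate 1 and at 36 to 263 counts (1.79 to 10.5 CPM) in the other libraries. Kmt2a+/+ replicate 1 was the lowest library for 7 of the 11 genes of this list, for 5 of 12 of the committed list and for 2 of 13 of the myelinating list, with ties left out, against 34.1% of all genes. It was the highest library for 3 of 13 genes of the myelinating list and for 0 of the precursor and committed lists. Of the 11 genes of signals and inhibitors it was the highest for 4 and the lowest for 4. The share of all genes for which it was highest is not given here. In Kmt2a+/LSL against Kmt2a+/+ the median log2 fold change was 0.017 in the precursor list, -0.057 in the committed list, 0.26 in the myelinating list and -0.015 in signals and inhibitors, against -0.011 over all genes. Without Kmt2a+/+ replicate 1 these medians were -0.29, -0.20, 0.44 and 0.11, against 0.00 over all genes, so that the sign turned in the precursor list and in signals and inhibitors. In the precursor list 7 genes were higher and 4 lower with every library, and 2 were higher and 9 lower without that library. For the 11 tested genes of the myelinating list the split went from 8 higher and 3 lower to 11 higher and 0 lower, with 0 genes called in edgeR in either case.

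Genes of finished myelin were near the detection floor. Mog, Ermn, Opalin and Fa2h, all products of myelinating or late cells, were at 0 counts in some libraries. Mobp was at 1.25 CPM on average, Mal at 1.13 and Cldn11 at 0.549. In the myelinating list 8 of 13 genes had a mean of at least 1 CPM and 2 of at least 10 CPM. The highest was Trf, the gene of the iron carrier transferrin, at 185 CPM. The committed list was led per kilobase by the kinase gene Fyn at 117 and by the deacetylase gene Sirt2 at 35.2, with 9 of 12 genes at a mean of at least 1 CPM.

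The genes of the lists described next had an unadjusted p under 0.05 in some comparison, each with an adjusted p of 1.00 in edgeR. Pcdh15, a protocadherin gene of precursor cells, was lower in Kmt2a+/LSL (0.893 ± 0.481 CPM, SD, n = 3) and in Nes-Cre+/- Kmt2a+/+ (0.620 ± 0.392) than in Kmt2a+/+ (1.96 ± 0.48), with unadjusted p-values of 0.0451 and 0.017, and both comparisons use the same Kmt2a+/+ libraries. Without Kmt2a+/+ replicate 1 these p-values were 0.0517 and 0.0206. It was higher in Nes-Cre+/- Kmt2a+/LSL (1.56 ± 0.232) than in Nes-Cre+/- Kmt2a+/+ with a p of 0.0457, and its interaction was 2.45 ± 0.82 (SE) on the log2 scale with an unadjusted p of 0.0122 (0.0435 and 0.0131 without that library). These values rest on 4 to 62 counts per library. Itpr2, the gene of a calcium channel of the endoplasmic reticulum, was lower in Nes-Cre+/- Kmt2a+/+ (132 ± 7.33 CPM) than in Kmt2a+/+ (167 ± 10.0), with an unadjusted p of 0.0462, and its interaction was 0.60 ± 0.21 with a p of 0.0155 (0.0468 and 0.00945 without Kmt2a+/+ replicate 1). Neu4, a sialidase gene, was higher in Kmt2a+/LSL (8 to 19 counts per library) than in Kmt2a+/+ (2 to 8 counts), with an unadjusted p of 0.0336, which was 0.0783 without Kmt2a+/+ replicate 1. Mog had 0 counts in all 3 Nes-Cre+/- Kmt2a+/LSL libraries and 7, 1 and 0 in Nes-Cre+/- Kmt2a+/+, with an unadjusted p of 0.0491 (0.0536 without Kmt2a+/+ replicate 1 in the fit), and no fold is given at these counts.

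Among signals and inhibitors, Hes5, a Notch target that holds back differentiation, led per kilobase at 64.8. Fgfr3 was at 16.8 CPM and Hes5 at 2.14 CPM in Kmt2a+/+ replicate 1, and between 169 and 510 CPM and between 45.8 and 160 CPM in the other libraries. The ligand gene Pdgfa, whose product acts on PDGFRA, was even across libraries, between 8.62 and 12.4 CPM. From the lowest to the highest library Pdgfa varied 1.44-fold and Pdgfra 4.63-fold.

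Across the 12 libraries, the 9 genes were compared by their patterns. The points of these correlations share library and depth, and no test was made. By log2 CPM, Olig2 had a Pearson r of 0.955 with Olig1 and of 0.928 with Cspg4, and of 0.926 and 0.742 over the 11 libraries without Kmt2a+/+ replicate 1 (Spearman rho of 0.927 and 0.773). With Pdgfra, Olig2 had an r of 0.247, and of -0.282 over the 11 libraries. Cspg4 lay between them, with an r with Pdgfra of 0.499, and of 0.215 over the 11 libraries (rho of 0.539 and 0.40). Pdgfra instead had an r of 0.874 with Gpr17, and of 0.853 over the 11 libraries (rho of 0.783 and 0.773). Mbp had its highest r among the other 8 genes with Cnp, at 0.570 over the 12 libraries and 0.647 over the 11. For Cnp and Olig2 the r was 0.867 over the 12 libraries and 0.427 over the 11, so that much of it rested on 1 library.

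Of 11677 genes with a mean of at least 50 counts, those nearest to Olig2 were Bahcc1 (r of 0.981), Fscn1 (0.977), Amacr (0.977), Zbtb45 (0.974) and Mapk7 (0.971), and Olig1 was in place 26. Those nearest to Pdgfra were Asrgl1 (0.917), Rbsn (0.916), Ppp2r2b (0.901), Dcc (0.897) and Prkcq (0.892), with Gpr17 in place 12. Those nearest to Mbp were Ahnak (0.863), Kcnj12 (0.863), Ddit3 (0.854), Frem2 (0.851) and Rab3il1 (0.850). Over the 11 libraries the r of these 15 genes lay between 0.817 and 0.955. They were picked by their r over the same libraries, so this range is no separate support. Their places over the 11 libraries were 1 to 18 for Olig2, 3 to 16 for Pdgfra and 9 to 21 for Mbp. Mbp had only 18 to 56 counts per library.

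**Figure D4:**
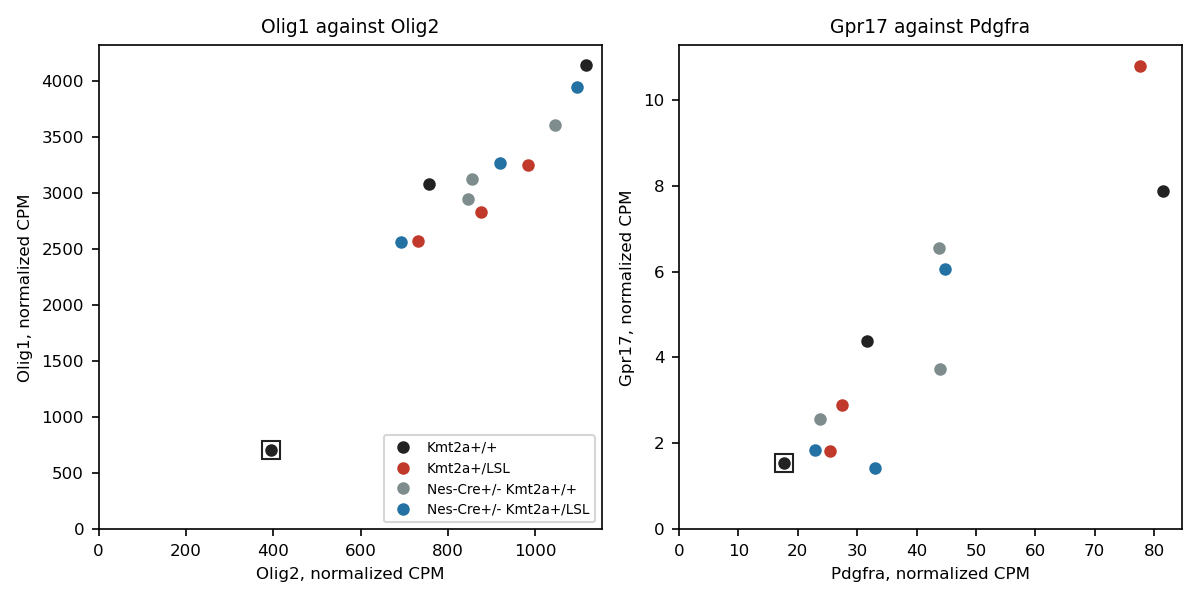
Normalized CPM of Olig1 against Olig2 (left) and of Gpr17 against Pdgfra (right) in the 12 libraries, on linear axes from 0, with colours for the genotypes and a square around Kmt2a+/+ replicate 1. On the left 11 libraries lie along a rising band from 693 to 1116 CPM of Olig2 and the squared library lies far below, and on the right 1 library of Kmt2a+/+ and 1 of Kmt2a+/LSL hold the highest values, at 81.5 and 77.6 CPM of Pdgfra.

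The cultures were checked for other cell types. All 7 neural progenitor markers were at a mean of at least 1 CPM, led by Fabp7 at 3891 CPM, and their summed level was between 6898 and 10180 CPM in 11 libraries and 15410 CPM in Kmt2a+/+ replicate 1, the library with the lowest sum of the 9 lineage genes. In that library Fabp7 alone was at 8960 CPM. Of the 7 progenitor markers, 3 were highest in that library and 1, Sox2, was lowest. Of 7 astrocyte markers, 6 were at a mean of at least 10 CPM, led by Slc1a2 at 823 CPM, with a summed level of 1180 CPM in Kmt2a+/+ replicate 1 and of 1775 to 4278 CPM in the others. Within that list Gjb6 was at 0 counts in some libraries. The 7 neuronal markers, led by Map2 at 1370 CPM, summed to 1901 CPM in Kmt2a+/+ replicate 1 and to 1012 to 1707 CPM in the others, while Stmn2 was at a mean of 0.0840 CPM. Map2 alone was at 1874 CPM in Kmt2a+/+ replicate 1. That library was the highest for 3 of the 7 neuronal markers and the lowest for 3, among them Tubb3 at 3.03 CPM. Summed levels by genotype overlapped for progenitor markers (7989 to 15410 CPM in Kmt2a+/+, 7363 to 10180 in Kmt2a+/LSL, 8203 to 8520 in Nes-Cre+/- Kmt2a+/+ and 6898 to 10050 in Nes-Cre+/- Kmt2a+/LSL). The summed astrocyte markers overlapped as well, at 1180 to 4278 CPM in Kmt2a+/+, 2240 to 3090 in Kmt2a+/LSL, 1820 to 3086 in Nes-Cre+/- Kmt2a+/+ and 1775 to 2726 in Nes-Cre+/- Kmt2a+/LSL, as did the neuronal ones, at 1279 to 1526 CPM in Kmt2a+/LSL and 1350 to 1707 in Nes-Cre+/- Kmt2a+/LSL. In the comparison of those Kmt2a+/LSL genotypes, the groups did not overlap for 7.13% of all genes, Nkx2-2 and Myrf among them. They also did not overlap for 3 of 7 astrocyte markers. Gfap was at 139, 191 and 98.1 CPM in Kmt2a+/LSL and at 87.7, 52.6 and 83.2 CPM in Nes-Cre+/- Kmt2a+/LSL. Aqp4 was at 44.3, 42.1 and 24.3 CPM against 17.98, 14.2 and 16.6 CPM, and Gjb6 was at most at 0.187 CPM in the former and at 0 counts in the latter. Of the 7 neuronal markers, 1 did not overlap (Rbfox3, at 0.7496 to 1.29 against 1.49 to 2.13 CPM), and of the 7 progenitor markers 0. The part of these cells in the levels of the lineage genes was not tested.

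Markers of cell types outside the neural lineage were also measured. The summed CPM of microglial markers was at most 1.73, of fibroblast markers at most 5.41, of endothelial markers at most 3.15 and of Schwann cell markers at most 5.32 in any library, with P2ry12, Twist1, Kdr and Prx as the highest gene of each. Pericyte and smooth muscle markers summed to between 0.714 and 11.0 CPM with Rgs5 as the highest gene, while Pdgfrb was at a mean of 0.114 CPM. At 0 counts in some libraries were 4 of 5 microglial markers (Aif1, Csf1r, P2ry12 and Tmem119), Dcn and Lum among fibroblast markers, Pdgfrb and Acta2 among pericyte markers, Cdh5 among endothelial markers, and Pmp2 among Schwann cell markers. The part of such cells in the levels of Pdgfra and the myelin genes was not tested.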

How the data were processed

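RNA-Seq was performed by the authors on mNPCs of 4 genotypes, with 3 libraries each. The authors pseudoaligned the reads with kallisto 0.48.0 to mouse transcripts of mm10 (GRCm38) and collapsed them to genes through tximport and biomaRt. What they deposited is a table of estimated counts, which held whole numbers throughout and had not been scaled. The strand setting is not given in the sources used here.

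Software was edgeR 4.0.16, DESeq2 1.42.0 and limma 3.58.1 under R 4.3.3. A gene was tested if its counts summed to more than 10 and were above 0 in 2 or more libraries. After TMM scaling, the quasi-likelihood F-test of edgeR was fitted across the whole table on genotype alone, with Benjamini-Hochberg adjustment and a threshold of 0.05. The cassette comparison without Cre and the comparison of both Kmt2a+/LSL genotypes came from a fit of 9 libraries (16655 genes), and the others from a fit of all 12 (17076 genes). A count test was planned, and the estimated counts entered it unchanged. The scripts were checked for coding errors on simulated data, which does not measure how well the p-values are calibrated in these libraries. Lengths, positions and overlaps came from the GRCm38 annotation. The floor is 3 counts per library, for counting error only.

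The 9 genes and the lists were chosen with earlier results of these data known. All 9 are reported. From the lists, every gene with an unadjusted p under 0.05 and the 2 highest genes per kilobase are named, from the markers the highest gene of each cell type, and for Olig2, Pdgfra and Mbp the 5 most correlated genes. Names outside that rule (Sox10, Mobp, Mal, Cldn11, Ermn, Opalin, Fa2h, Fgfr3, Pdgfa, Pdgfrb, Acta2, Cdh5, Gfap, Aqp4, Gjb6, Rbfox3, Stmn2, Dcn, Lum, Pmp2, Aif1, Csf1r and Tmem119) were chosen after their values were seen. Of the lists, 7 genes (Lhfpl3, Mag, Pdgfb, C1qa, Kcnj8, Cldn5 and Foxd3) are not analysed here, and some others that the rule names are not reported here. Alternatives were another normalization, test, filter, block and set of libraries, and each library left out.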

Additional observations from a re-analysis of the deposited data

How the results depend on the processing

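In all 104 alternatives for the counts of the 9 genes, and in every alternative run for the lists, 0 genes were called. Of 540 alternatives for the fold changes of single genes, 488 kept the sign and 52 turned it, 16 with every library and 36 with a library left out, and the lowest adjusted p was 0.655 (edgeR, DESeq2 or limma-voom). Under limma-voom with quality weights, Kmt2a+/LSL against Kmt2a+/+ gave -0.19 for Olig1, -0.20 for Cspg4, -0.66 for Gpr17 and -0.12 for Mbp. The same setting gave -0.052 for Olig1, -0.29 for Cspg4, -0.0022 for Nkx2-2 and -0.046 for Cnp in Nes-Cre+/- Kmt2a+/+ against Kmt2a+/+, and 0.12 for Olig2, 0.098 for Pdgfra and 0.021 for Cnp in Nes-Cre+/- Kmt2a+/LSL against Nes-Cre+/- Kmt2a+/+. The cause was not tested.

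No label ties libraries of different genotypes by their number. The deviations of libraries with the same number correlated by 0.084 on average over 18 pairs (-0.072 to 0.42, 5 above 0.1), and those with different numbers by -0.041 over 36 pairs (4 above 0.1). Since not every pair was above 0.1, the libraries were not treated as paired, although 8 of 12 correlated best with one of their own number, a hint of shared variation from the data and not from the design. With the replicate number as a block 0 of the 9 genes were called. The block turned the sign of Pdgfra (0.077) in Kmt2a+/LSL against Kmt2a+/+, of Pdgfra (0.088), Gpr17 (0.19) and Mbp (0.0019) in Nes-Cre+/- Kmt2a+/+ against Kmt2a+/+, and of Olig1 (-0.043) in Nes-Cre+/- Kmt2a+/LSL against Nes-Cre+/- Kmt2a+/+.

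The ranges that follow are those of the fold changes (log2) that turned sign when a single library was omitted. In Kmt2a+/LSL against Kmt2a+/+ they ran from -0.33 to 0.60 for Olig1, -0.12 to 0.57 for Olig2, -0.73 to 0.81 for Pdgfra, -0.42 to 0.75 for Cspg4, -0.51 to 0.012 for Nkx2-2, -0.98 to 0.78 for Gpr17 and -0.019 to 0.47 for Mbp. In Nes-Cre+/- Kmt2a+/LSL against Kmt2a+/LSL they ran from -0.10 to 0.22 for Olig2, -0.65 to 0.35 for Pdgfra and -1.66 to 0.40 for Gpr17. In Nes-Cre+/- Kmt2a+/+ against Kmt2a+/+ they ran from -0.17 to 0.77 for Olig1, -0.037 to 0.67 for Olig2, -0.61 to 0.59 for Pdgfra, -0.40 to 0.77 for Cspg4, -0.096 to 0.45 for Nkx2-2, -0.55 to 0.51 for Gpr17, -0.23 to 0.23 for Mbp, -0.092 to 0.60 for Cnp and -0.11 to 0.86 for Myrf. In Nes-Cre+/- Kmt2a+/LSL against Nes-Cre+/- Kmt2a+/+ they ran from -0.14 to 0.16 for Olig1, -0.18 to 0.14 for Olig2, -0.41 to 0.068 for Pdgfra and -0.14 to 0.084 for Cnp. Without Kmt2a+/+ replicate 1, 5 of 9 signs turned in the first of these comparisons, 6 of 9 in the comparison of Cre alone, and 0 in the others, where this library is in neither group and its omission was chosen after seeing the data. With the longest transcript as the length, levels per kilobase moved to 17.6 for Cspg4, 7.70 for Nkx2-2, 0.337 for Mbp and 0.499 for Myrf. The Pdgfra level per kilobase went from 3.94 to 5.77, which would raise its share of Olig2 by the same factor, and the Cnp level per kilobase went to 97.3. Olig1, Olig2 and Gpr17 kept their values. Depth limits Mbp, Myrf and Gpr17, which had 18 to 56, 18 to 126 and 26 to 266 counts per library.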
